A study of Mus musculus with 22 samples.

Results

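Accessible chromatin was examined at 5 genes that mark arteries or veins, in endothelial cells that had been isolated from mouse pup retinas by cell sorting. The regions described are ATAC-seq peaks, that is, stretches where the Tn5 transposase cut accessible DNA often enough for a peak to be called. They were taken by position, as all peaks with their midpoint in 1 of 5 windows of the mm9 build. The windows themselves were given with earlier results of these data known. The venous windows were those of Nr2f2 (chromosome 7, 77.35 to 77.65 Mb), Ephb4 (chromosome 5, 137.73 to 137.86 Mb) and Aplnr (chromosome 2, 84.90 to 85.06 Mb). The arterial windows were those of Efnb2 (chromosome 8, 8.52 to 8.80 Mb) and Gja5 (chromosome 3, 96.76 to 96.92 Mb). Together they held 54 of the 49558 gTKO regions and 62 of the 57267 control regions on placed chromosomes.

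The study compared gTKO pups, which carried S1pr3-/- S1pr1flox/flox S1pr2flox/flox alleles with Rosa26-CreERT2, and control pups, which carried the same alleles without the recombinase. Both genotypes were on a C57BL/6 background, both lacked S1pr3, both received tamoxifen (100 µg by intraperitoneal injection from postnatal day 1 to day 3), and cells were taken on day 6. The cell type label calls these cells adult, which conflicts with the age label of postnatal day 6, and the age label is followed here. S1pr1, S1pr2 and S1pr3 encode receptors for the lipid mediator sphingosine 1-phosphate, and the title of the series asks how their signalling relates to the AP-1 transcription factors and to the specialization of retinal endothelium. Each genotype had 3 ATAC-seq libraries, each from the pooled retinas of 4 to 6 pups, but a single peak list. There is thus no replicate error, and no test between genotypes is given. Rosa26 is active in most cell types, so recombination was not limited to endothelium. How far S1pr1 and S1pr2 were deleted cannot be read from the lists, and neither can the identity of the sorted cells.

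Arteries and veins are lined by endothelial cells with different gene programmes, which are set partly before blood flow begins and are kept up by Notch and flow signals. Nr2f2 encodes COUP-TFII, a nuclear receptor that promotes venous identity and restrains Notch signalling. Ephb4 is the receptor tyrosine kinase of venous endothelium, and its transmembrane ligand ephrin-B2, encoded by Efnb2, marks arteries. Aplnr encodes the apelin receptor, a G protein-coupled receptor of venous and sprouting endothelium. Gja5 encodes connexin 40, a gap junction protein of arterial endothelium.

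The RefSeq promoters of the 4 genes that could be matched by symbol are shown to identify the gene starts for which the windows were named, and to show how unlike they are in CpG content. Each has 300 bases, written 5′ to 3′ on the coding strand, with CpG dinucleotides in capitals. In 60.4% of all promoter entries, 250 bases lie before the annotated start and 50 from the start on. Whether this placement holds for the 4 genes was not checked. Aplnr had no entry, and other starts of the 4 genes, if any, were not examined. Positions are GRCm38.p6 and cannot be set against the mm9 positions of the peaks. Whether a peak covers a start within these entries was therefore not tested. They lie at chr7:70366697-70366996 (minus strand) for Nr2f2, chr5:137349859-137350158 (plus strand) for Ephb4, chr8:8661193-8661492 (minus strand) for Efnb2 and chr3:97032152-97032451 (plus strand) for Gja5.
Nr2f2: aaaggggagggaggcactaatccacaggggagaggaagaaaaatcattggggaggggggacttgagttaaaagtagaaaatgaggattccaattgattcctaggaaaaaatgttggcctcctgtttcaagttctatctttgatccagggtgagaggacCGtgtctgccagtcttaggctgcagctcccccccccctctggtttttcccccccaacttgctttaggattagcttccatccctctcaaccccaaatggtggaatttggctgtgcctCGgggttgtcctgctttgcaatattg
Ephb4: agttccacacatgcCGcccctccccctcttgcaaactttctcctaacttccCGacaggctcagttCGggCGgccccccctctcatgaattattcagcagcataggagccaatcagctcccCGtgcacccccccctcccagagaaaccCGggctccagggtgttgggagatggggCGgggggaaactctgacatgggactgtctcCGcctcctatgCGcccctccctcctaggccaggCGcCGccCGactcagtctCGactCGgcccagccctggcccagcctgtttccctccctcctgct
Efnb2: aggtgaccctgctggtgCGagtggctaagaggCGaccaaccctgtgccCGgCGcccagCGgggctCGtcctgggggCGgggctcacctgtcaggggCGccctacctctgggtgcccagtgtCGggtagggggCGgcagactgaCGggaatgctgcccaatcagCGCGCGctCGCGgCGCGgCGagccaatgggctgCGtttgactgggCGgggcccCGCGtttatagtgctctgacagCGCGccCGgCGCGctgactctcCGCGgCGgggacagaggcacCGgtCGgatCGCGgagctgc
Gja5: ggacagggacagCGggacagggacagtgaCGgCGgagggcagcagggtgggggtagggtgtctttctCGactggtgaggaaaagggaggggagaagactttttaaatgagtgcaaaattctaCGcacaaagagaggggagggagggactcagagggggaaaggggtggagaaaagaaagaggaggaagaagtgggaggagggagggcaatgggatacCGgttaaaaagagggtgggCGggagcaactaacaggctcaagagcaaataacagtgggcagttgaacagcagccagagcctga

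The Efnb2 promoter held 35 CpG dinucleotides and was 72.3% G or C, and 93.0% of the 32851 RefSeq mouse promoters of this length held fewer. Among the entries given, the Ephb4 promoter held 14 (64.7% G or C), the Gja5 promoter 7 (55.7%) and the Nr2f2 promoter 2 (49.7%). The median over all promoters was 7 CpG dinucleotides and 52.7% G or C. The AP-1 site TGACTCA, searched on both strands, was in none of the 4 promoters and in 5.20% of all. The ETS core CCGGAA (14.9% of all), the RBPJ site TGGGAA (25.6%) and the COUP-TF core AGGTCA (16.3%) were likewise absent from these 300-base windows on either strand. The ETS and RBPJ motifs share the letters GGAA. This says nothing on binding elsewhere in the loci, whose mm9 sequence was not used here.

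Over the 5 loci, most accessible regions were found in both genotypes and were mostly narrower in gTKO cells. The regions covered 28178 bp in the gTKO list and 38559 bp in the control list, so that gTKO coverage was 73.1% of control coverage, against 77.1% over all placed regions. Shared regions are those with an overlap of 1 bp or more between lists, and the rest are called gTKO-only or control-only. Of the gTKO regions 50 were shared and 4 were gTKO-only (7.41%, exact Clopper-Pearson 95% interval 2.06 to 17.9%), beside 9.75% over all placed gTKO regions. Of the control regions 45 were shared and 17 were control-only (27.4%, interval 16.9 to 40.2%), beside 27.0% over all placed control regions. Both shares were thus near those of the whole lists. These intervals cover counting error only and treat regions as independent, and the read depth behind either list is unknown. Fewer cells of a type and less accessibility per cell cannot be told apart in these bulk lists.

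**Figure D1:**
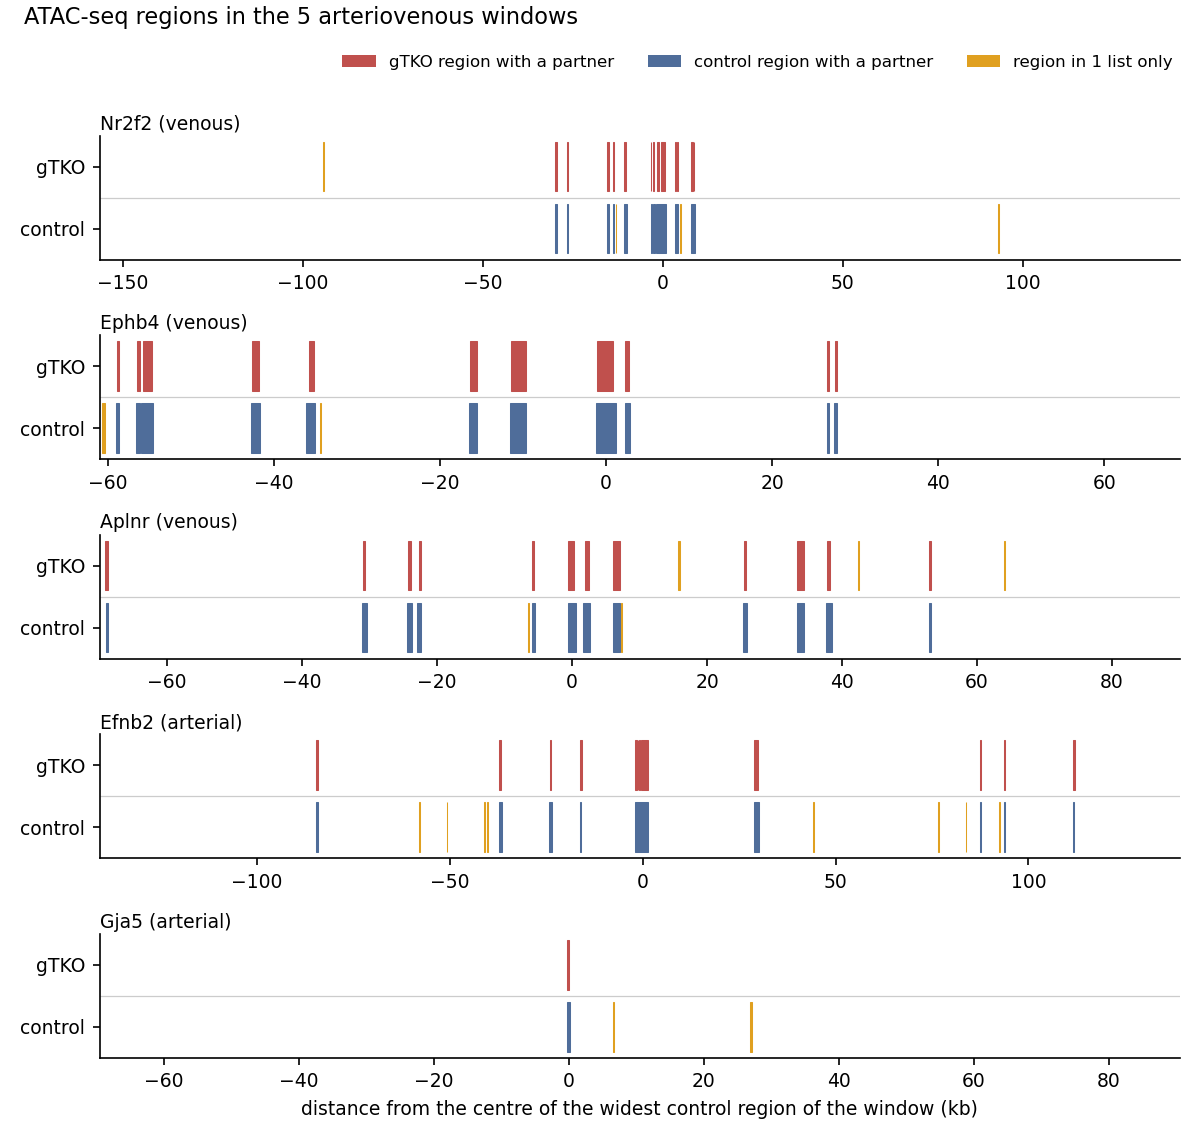
Positions of ATAC-seq regions in the 5 windows, with the gTKO list above the control list in each panel. The x axis gives the distance in kb from the centre of the widest control region, bars are drawn at their width with a thin outline that keeps narrow regions visible, and yellow bars are the 4 gTKO-only and 17 control-only regions.

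By count, the loci differed in which list held the unmatched regions. The 3 venous windows held 41 gTKO and 41 control regions, of which 4 gTKO regions (9.76%, interval 2.72 to 23.1%) and 7 control regions (17.1%, interval 7.15 to 32.1%) had no partner. The 2 arterial windows held 13 gTKO and 21 control regions, of which 0 gTKO regions and 10 control regions (47.6%, interval 25.7 to 70.2%) had none. By the limit of 3 counts, 0 of 13 leaves room for a share of 23.1%. With Efnb2 left out, 9 control-only regions remained over the other loci in place of 17, since 8 of the 17 lay in that window. With Aplnr left out, 1 gTKO-only region remained in place of 4. Over all placed regions the shares were 9.75% for gTKO-only and 27.0% for control-only regions. The venous and arterial control-only intervals overlapped and both include 27.0%. A difference between the classes was not tested.

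The unmatched regions were mostly narrow at the loci, as they were in the whole lists. Of the 4 gTKO-only regions 3 were under 300 bp, beside 90.5% of all placed gTKO-only regions. Of the 17 control-only regions 16 were under 300 bp, beside 83.0% of all placed control-only regions, and 5 had exactly the smallest width in either list, 150 bp. All 28 control regions of 500 bp or more had a gTKO partner, where a count of 0 allows an unmatched share of up to 10.7%. Over all placed control regions of that width 2.37% had no partner, so the count of 0 is near the background. Among control regions of 150 to 299 bp, 16 of 22 at the loci had no partner (72.7%, interval 49.8 to 89.3%), against 52.5% of all placed control regions of that width. In the Efnb2 window 11 of the 18 control regions were under 300 bp, and 8 of those 11 were unmatched. In the venous windows 9 of 41 control regions were under 300 bp, and 6 of those 9 were unmatched. The arterial windows thus held more narrow control regions, and within this width class the unmatched shares were 10 of 13 in the arterial and 6 of 9 in the venous windows.

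**Figure D2:**
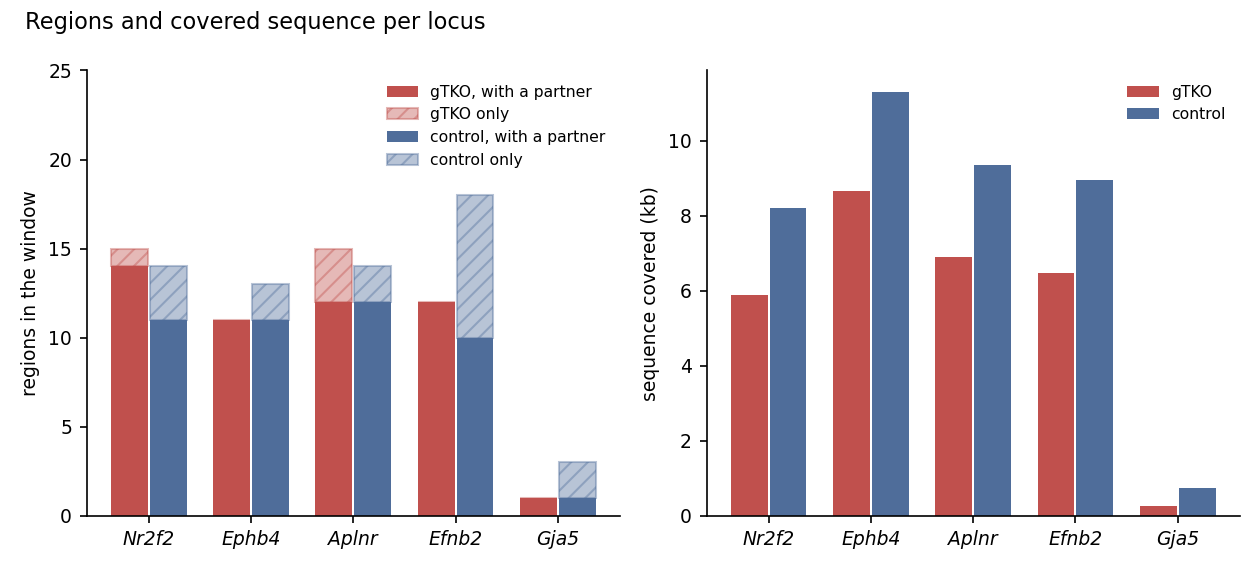
Regions per window (left) and sequence covered in kb (right), gTKO bars left of control bars, with hatched parts for regions of 1 list. Covered sequence was smaller in the gTKO list in all 5 windows, while the numbers of regions were 15 and 14 at Nr2f2, 11 and 13 at Ephb4, 15 and 14 at Aplnr, 12 and 18 at Efnb2, and 1 and 3 at Gja5 (gTKO, then control).

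At the venous regulator Nr2f2, accessible regions lay mostly between 77476411 and 77515208 of a 300 kb window. Most were called in both genotypes, but with less sequence in gTKO cells. The control-only share was 21.4% (interval 4.66 to 50.8%), beside 27.0% over all placed control regions. The gTKO-only share was 6.67%, beside 9.75% over all placed gTKO regions. The window held 15 gTKO regions covering 5883 bp and 14 control regions covering 8208 bp, so gTKO coverage was 71.7% of control coverage. The largest group, from 77502973 to 77515208, held 9 gTKO regions covering 3650 bp and 7 control regions covering 5548 bp. Its widest region, chr7:77505453-77507211 in the control list (1759 bp), measured 1308 bp in the gTKO list. The gTKO region lay inside the control region, starting 341 bp later and ending 110 bp earlier.

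Both control regions at Nr2f2 that overlapped several gTKO regions lay in this same group. The control region chr7:77514257-77515208 (952 bp) was matched by 3 gTKO regions of 302, 188 and 233 bp, which covered 75.1% of it. The control region chr7:77509784-77510583 (800 bp) was matched by 2 gTKO regions of 250 and 267 bp, which covered 62.5%. Over all placed control regions, 5.28% overlapped 2 or more gTKO regions, and at the 5 loci 3 of 62 did, which is near that share. With the breaks at Nr2f2, shared regions of this window numbered 14 in the gTKO list and 11 in the control list.

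The remaining Nr2f2 regions were single pairs and 4 unmatched regions, of which the control-only ones were at or next to the smallest width. In the pair with the lowest width ratio, chr7:77503601-77504220, the width was 300 bp in the gTKO list and 620 bp in the control list, or 48.4%. Next to it, the control region chr7:77504596-77505412 measured 581 bp in the gTKO list and 817 bp in the control list. In the opposite direction, the pair at chr7:77476411-77476923 measured 574 bp in the gTKO list and 513 bp in the control list. The control-only regions were chr7:77511220-77511370 (151 bp), chr7:77493307-77493456 and chr7:77599565-77599714 (150 bp each). The last lay alone beyond the longest empty stretch of the window, 84.4 kb. The single gTKO-only region, chr7:77412008-77412278 (271 bp), also lay alone, 64132 bp from the nearest control region.

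Ephb4, which encodes the venous receptor for ephrin-B2, had the most accessible sequence of the 5 windows. Its 130 kb window held 11 gTKO regions covering 8670 bp and 13 control regions covering 11305 bp (76.7%). All 11 gTKO regions had a single control partner, and in all 11 pairs the control region was the wider one. A count of 0 unmatched of 11 allows a share of up to 27.3%, beside 9.75% over all placed gTKO regions. Over all placed pairs the control region was wider in 79.5%, which the interval for Ephb4 (71.5 to 100%) includes. In GRCm38 the protein-coding neighbours of Ephb4 are Slc12a9 and Zan, followed by Trip6 and Epo, and which of the regions belong to which gene was not resolved.

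The widest region at Ephb4, chr5:137789722-137792110, measured 1963 bp in the gTKO list and 2389 bp in the control list. The region chr5:137779385-137781266 measured 1803 bp in the gTKO list and 1882 bp in the control list, the highest ratio of the window at 95.8%. The region chr5:137734952-137736345 measured 1108 and 1394 bp in the gTKO and control lists. The lowest ratio, 59.6%, was found at chr5:137754816-137755894, with 643 bp in the gTKO list and 1079 bp in the control list. The pair with the lowest ratio was thus also over 1000 bp wide in the control list. The control-only regions were chr5:137730214-137730556 (343 bp), the one control-only region of 300 bp or more at the 5 loci, and chr5:137756514-137756663 (150 bp). They lay 490 and 732 bp from the nearest gTKO region, and the first lies at the very start of the window.

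At Aplnr, the apelin receptor gene, the median width ratio of pairs was the lowest of the venous loci, while 3 of the 4 gTKO-only regions were also found here. The 160 kb window held 15 gTKO regions covering 6897 bp and 14 control regions covering 9361 bp (73.7%). For 3 gTKO-only regions of 15 the interval was 4.33 to 48.1%, which includes the 9.75% over all placed gTKO regions. Of the gTKO sequence 89.4% was shared, against 99.2% at Ephb4 and 93.4% at Nr2f2. The protein-coding neighbours in GRCm38 are Tnks1bp1 and Lrrc55.

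The 3 widest control regions at Aplnr differed in how much of their width was found in the gTKO list. The region chr2:84969325-84970604 measured 910 bp in the gTKO list and 1280 bp in the control list. The region chr2:85003224-85004395 measured 1027 bp in the gTKO list and 1172 bp in the control list. The region chr2:84971588-84972659 measured 590 and 1072 bp in the gTKO and control lists, trimmed by 230 bp at its start and 252 bp at its end. The narrowing was thus not tied to 1 edge.

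Among the other Aplnr pairs, chr2:85007548-85008456 measured 444 bp in the gTKO list and 909 bp in the control list (48.8%). The region chr2:84938826-84939593 had the lowest ratio of all 42 pairs, with 279 bp in the gTKO list and 768 bp in the control list (36.3%), and was singled out after its values were seen. By contrast, chr2:84976041-84977009 measured 961 bp in the gTKO list and 969 bp in the control list. Regions of similar control width in this window therefore ranged from nearly equal widths to a ratio under 50%. In 1 pair, at chr2:84900867-84901198, the gTKO region was the wider one, with 413 bp against 332 bp in the control list.

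The gTKO-only regions at Aplnr lay apart from control regions, and the control-only regions lay beside shared ones. The gTKO-only regions were chr2:84985625-84985951 (327 bp), chr2:85012268-85012423 (156 bp) and chr2:85034008-85034158 (151 bp), at 8288, 3811 and 10872 bp from the nearest control region. The control-only regions were chr2:84977151-84977336 (186 bp) and chr2:84963427-84963589 (163 bp), at 144 and 409 bp from the nearest gTKO region.

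At Efnb2, the arterial ligand gene, the widest region was mostly covered in gTKO cells but by 3 separate regions, while 8 narrow control regions had no counterpart. The 280 kb window held 12 gTKO regions covering 6475 bp and 18 control regions covering 8945 bp (72.4%). All 12 gTKO regions were shared, where a count of 0 unmatched allows up to 25.0%, beside 9.75% over all placed gTKO regions. Of the control regions 44.4% were control-only (interval 21.5 to 69.2%), beside 27.0% over all placed control regions. The neighbours in GRCm38 are Slc10a2 and Arglu1, so regions of the window need not belong to Efnb2.

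The widest region of all 5 windows, chr8:8659373-8662176 in the control list (2804 bp), was matched by 3 gTKO regions of 163, 434 and 1966 bp, which together covered 91.4% of it. These 3 gTKO regions were separated by gaps of only 130 and 40 bp. The broken Nr2f2 regions were covered to a smaller extent, as given above. The second widest, chr8:8689571-8690876, measured 1023 bp in the gTKO list and 1306 bp in the control list. The third, chr8:8636355-8637105, measured 468 bp in the gTKO list and 751 bp in the control list (62.3%), with 273 of the lost bp at its start. At chr8:8576111-8576544 the widths were 370 bp in the gTKO list and 434 bp in the control list (85.3%). The pairs at chr8:8644580-8644767 and chr8:8772449-8772675 were wider in the gTKO list, with 377 and 329 bp against 188 and 227 bp in the control list. Both had a control width under 300 bp.

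The 8 control-only regions at Efnb2 measured 150 to 266 bp and covered 1566 bp in all. The widest were chr8:8620431-8620696 (266 bp), chr8:8602678-8602897 and chr8:8704855-8705074 (220 bp each). The others were chr8:8609912-8610121 (210 bp), chr8:8619670-8619857 (188 bp), chr8:8737402-8737563 (162 bp), chr8:8744486-8744635 and chr8:8753231-8753380 (150 bp each). They lay on both sides of the widest region, and each was at least 1049 bp from the nearest gTKO region. At Nr2f2, Ephb4 and Aplnr, 6 of the 7 control-only regions lay within 732 bp of a gTKO region. The remaining region, chr7:77599565-77599714, lay 73127 bp away. The Efnb2 window held 4.29 gTKO regions per 100 kb, against 5.00 at Nr2f2, 8.46 at Ephb4 and 9.38 at Aplnr. The contrast in distance was noticed in the values, was not adjusted for this density and was not tested.

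Gja5, the connexin 40 gene, had the least accessible sequence of the 5 windows, and all of it lay in regions of at most 380 bp. Its 160 kb window held 1 gTKO region covering 253 bp and 3 control regions covering 740 bp. The shared region, chr3:96829265-96829644, measured 253 bp in the gTKO list and 380 bp in the control list. The control-only regions were chr3:96856393-96856597 (205 bp) and chr3:96836048-96836202 (155 bp), at 26874 and 6529 bp from the gTKO region. The window held 0.625 gTKO and 1.87 control regions per 100 kb, against 1.92 and 2.22 for the whole lists. The other 4 windows held 4.29 to 9.38 gTKO and 4.67 to 10.0 control regions per 100 kb. Too few regions were found at Gja5 to give a share.

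**Figure D3:**
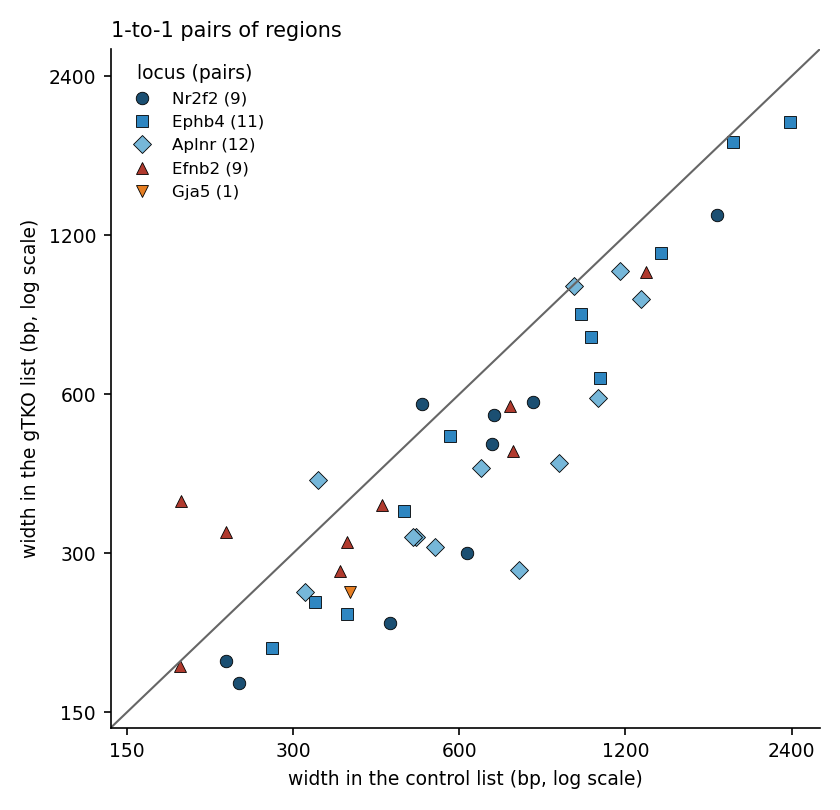
Widths in the 42 pairs of regions that matched 1 to 1, with the control width on the x axis and the gTKO width on the y axis, both in bp on log scales, by locus. Points under the diagonal line of equal width are narrower in gTKO cells, which holds for 38 pairs. The 2 points highest above the line belong to Efnb2 and have a control width under 300 bp.

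Paired regions at the 5 loci were narrower in gTKO cells in 38 of 42 cases (90.5%, interval 77.4 to 97.3%), beside 79.5% over all placed pairs. The interval includes the share of the whole lists. The median width was 423.5 bp in the gTKO list and 598 bp in the control list. Within pairs the gTKO width was 75.0% of the control width at the median (quartiles 65.4 and 84.9%), against 86.6% over all placed pairs (quartiles 72.9 and 97.4%). The ratio was under 50% in 4 pairs, from 50 to under 75% in 17, from 75 to under 100% in 17 and above 100% in 4. By locus the median was 71.1% at Nr2f2, 75.7% at Ephb4, 65.6% at Aplnr and 83.8% at Efnb2, and the single Gja5 pair had 66.6%.

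The ratio depends on width, so pairs were also set against all pairs of the same control width. For pairs of 1000 bp or more the median ratio was 76.3% at the loci (10 pairs) and 87.3% over all pairs (quartiles 79.0 and 93.4%), and 6 of the 10 lay under the lower quartile. For 500 to 999 bp it was 70.2% (15 pairs) and 82.0% (quartiles 67.6 and 91.9%), with 7 under the lower quartile. For 300 to 499 bp it was 75.7% (11 pairs) and 80.4%, and for 150 to 299 bp 90.1% (6 pairs) and 96.1%. In all 4 classes the loci had the lower median. Counted by locus, 8 of 9 pairs at Nr2f2, 8 of 11 at Ephb4, 9 of 12 at Aplnr, 4 of 9 at Efnb2 and the single pair at Gja5 lay under the median of all pairs of their class. Pairs of 1 window share their libraries and may share local signal, and whether the loci differ from other loci was not tested.

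The narrowing occurred at both edges. The gTKO region lay wholly inside the control region in 33 of 42 pairs (78.6%), beside 62.7% over all placed pairs. It started later in 37 pairs and ended earlier in 35. The median trim was 69.5 bp at the start and 66.5 bp at the end, against 30.0 bp at either edge over all placed pairs. At Nr2f2 the median trim was 30.0 bp at the start and 110 bp at the end, at Ephb4 116 and 65.0 bp, and at Aplnr 108 and 70.0 bp. At Efnb2 it was 24.0 and 17.0 bp, less than over all placed pairs at both edges. The single Gja5 pair was trimmed by 1 bp at the start and 126 bp at the end. The midpoint moved by 48.5 bp at the median, against 25.5 bp over all placed pairs. These comparisons of edges and midpoints were not matched for control width. The median control width of pairs was 598 bp at the loci, 376 bp at Efnb2 and 476 bp over all placed pairs.

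**Figure D4:**
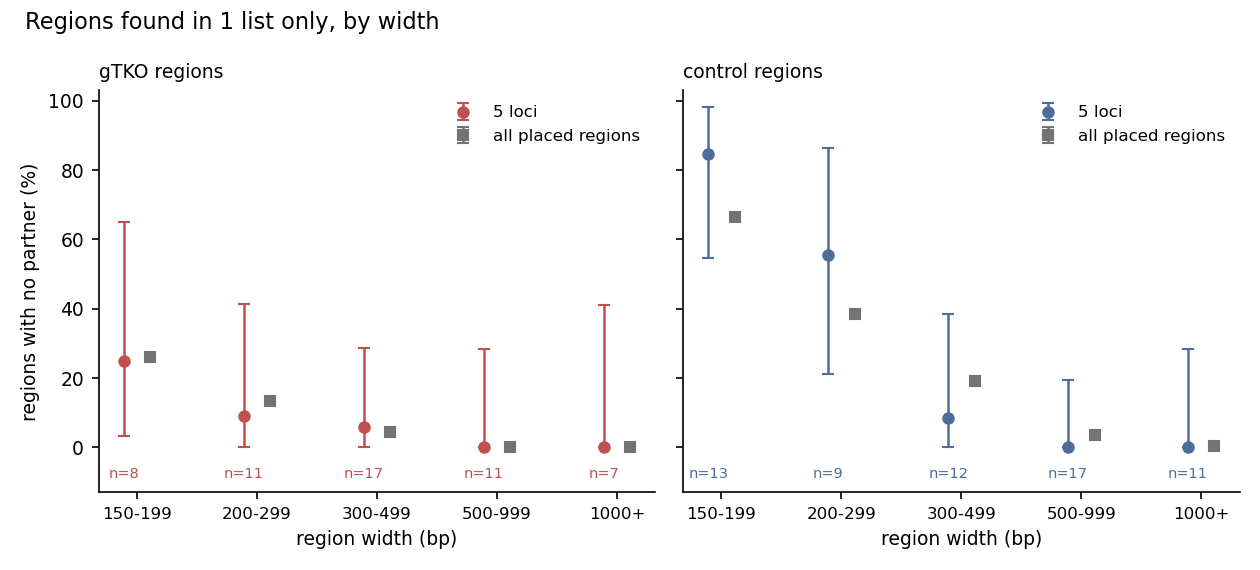
Share of regions with no partner in the other list, in percent, by region width, for the gTKO list (left) and the control list (right). Circles are the regions of the 5 loci with exact 95% intervals and their number, and squares are all placed regions. In both lists the unmatched share was highest in the narrowest class, with 2 of 8 gTKO regions and 11 of 13 control regions of 150 to 199 bp, and 0 of the regions of 500 bp or more.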

How the data were processed

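Per the labels, retinal endothelial cells were sorted from pups for ATAC-seq. The 16 RNA-seq libraries of the series were not analysed here. The authors deposited 1 list of peak positions per genotype (sequence name, start and end), which the labels of its 3 libraries all name. The lists hold no score. Per the submitters' processing notes, the tools of the series include Bowtie2, Picard, MACS2 and bedtools, and the build is mm9. Not given in the sources used here are their settings, the pooling of libraries and the filters. Fewer reads or lower signal over background would give fewer and narrower peaks, so depth and genotype cannot be told apart.

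Windows were taken from the given positions. Regions on unplaced sequences (620 gTKO, 1044 control) were left out. Overlaps of at least 1 bp were computed with pandas 2.3.3 and numpy 2.4.6 (Python 3.11.15), intervals with scipy 1.17.1 and plots with matplotlib 3.10.9. The overlap step was tested on simulated data. Pairs are regions that match 1 region of the other list and no other. Coordinates count from 1. Promoters came from RefSeq (GRCm38.p6).

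The members, lists and comparisons were chosen with earlier results of these data known. By rule, the text names in each window the 3 widest control regions with their partners, the 2 widest regions of 1 list, the pairs of at least 300 bp with the lowest and highest ratio, and regions that span several others. Other named regions were chosen after their values were seen. No p-value was computed.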

Additional observations from a re-analysis of the deposited data

How the results depend on the processing

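Control regions were the wider ones in most pairs under every alternative run (27 to 48 pairs against 38). The share was lowest in windows widened by 50 kb, at 48 of 60 pairs (80.0%) against 38 of 42 (90.5%). That share is near the 79.5% of all placed pairs. The count of control-only regions stayed within 1.5 times of 17 under the overlap rules tried, wider windows and the loss of Nr2f2, Ephb4, Aplnr or Gja5. It was 11 in the middle 50% of each window, 1 with regions of at least 300 bp, 8 with the control list reduced to its widest regions and 9 without Efnb2. The count of gTKO-only regions (4 as reported) was 16 when 50% of both regions had to be covered, 2 in the middle 50%, 1 with regions of at least 300 bp and 1 without Aplnr. The share of control sequence covered by gTKO regions, 69.2%, was 66.0% when 50% of a region had to be covered, 60.8% when 50% of both had to be, and 83.7% with gTKO regions extended by 100 bp. It was 70.8% in windows widened by 50 kb, 71.1% in the middle 50%, 74.4% with regions of at least 300 bp and 71.8% with the reduced control list. Without Nr2f2, Ephb4, Aplnr or Gja5 it was 69.8, 66.3, 70.2 or 69.9%. Fewer regions were counted in the runs with smaller counts, but the shares fell too. The control-only share, 27.4% as reported, was 25.0% in the middle 50% and 2.50% with regions of at least 300 bp. It was 15.1% with the reduced control list and 20.5% without Efnb2. The gTKO-only share, 7.41% as reported, was 5.00% in the middle 50%, 2.86% with regions of at least 300 bp and 2.56% without Aplnr. The cause of these and the other changes was not tested. No paired analysis was possible because the 3 libraries of a genotype share a single list, and leaving out replicates was not run for want of values per library. A stricter q value or fold was not run, since the lists hold neither. The depth behind the lists is unknown, and its effect on region width or number was not tested.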

Other observations

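The windows of equal length directly before and after each locus, 10 in all, held 59 gTKO regions covering 28127 bp and 66 control regions covering 32877 bp, so gTKO coverage was 85.6% of control coverage there, against 73.1% in the 5 loci. Control-only regions made up 21.2% (14 of 66, exact 95% interval 12.1 to 33.0%) beside the loci and 27.4% within them, with overlapping intervals. The flanks were not alike. After Efnb2, 10 gTKO regions covered 5388 bp and 10 control regions 5504 bp (97.9%), and before Gja5, 9 gTKO regions covered 3000 bp and 9 control regions 3015 bp (99.5%). Before Aplnr, 9 gTKO regions covered 6490 bp and 9 control regions 6805 bp (95.4%). No control region was unmatched in these 3 flanks, which were picked for their high coverage, beside 27.0% unmatched over all placed control regions. Beside Nr2f2, by contrast, gTKO coverage was 38.1% of control coverage before the window (1 gTKO and 3 control regions) and 52.9% after it (4 and 7). The remaining flanks lay between these extremes. Coverage was 70.5% before and 77.2% after Ephb4, with 2 of 6 and 3 of 6 control regions unmatched. It was 80.8% after Aplnr, 78.3% before Efnb2 and 90.1% after Gja5.

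The Gja5 window had the fewest regions although accessible regions lay on either side of it. The windows before and after it held 9 and 7 gTKO regions and 9 and 5 control regions, against 1 gTKO and 3 control regions within it. The nearest regions beyond its edges had their midpoints 2200 bp (gTKO) and 2129 bp (control) before its start, and 8276 bp (gTKO) and 8281 bp (control) after its end. The position of Gja5 within the window could not be checked against an mm9 annotation here.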
